A study of Mus musculus with 22 samples.

Results

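The contractile genes of the myofibroblast were followed here as 10 mouse genes: Acta2, Tagln, Cnn1, Myl9, Tpm1, Tpm2, Tpm4, Actn1, Flna and Cald1. They were the rows of a deposited table of raw counts whose Ensembl identifiers map to these symbols, and all 10 were found among its 55414 genes. The libraries are bulk RNA-seq of fibroblasts sorted from mouse back skin by flow cytometry, as live cells positive for CD34 and PDGFRα and negative for CD31, CD45, CD117 and EpCAM. All mice were operated. In the expander arm (EXP) an expander hydrogel, a gel used to stretch skin from below, was stitched in place near the neck, and in the control arm (CTRL) the same incision and tunnel were made and closed without one. Skin was taken on day 1 (4 CTRL and 5 EXP libraries), day 2 (3 and 3) or day 4 (4 and 3). The labels give neither strain, age nor sex, hold no unoperated skin, and do not say whether the libraries of a group come from separate mice. The p-values therefore measure the spread between these libraries, part of which may be technical. The design sets stretch plus an implant against surgery alone on each day.

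A myofibroblast is a fibroblast that builds stress fibres, bundles of actin and non-muscle myosin tied to the matrix through adhesions, and pulls on the tissue with them. Acta2, smooth muscle α-actin, is its usual marker. Tagln (transgelin, SM22α) and Cnn1 (calponin 1) are actin-binding proteins shared with smooth muscle, and Myl9 is the regulatory light chain of myosin. Tropomyosins (Tpm1, Tpm2, Tpm4) coil along the actin filament, and caldesmon (Cald1) binds actin and tropomyosin and restrains the motor. Actn1, α-actinin 1, ties filaments into bundles, and filamin A (Flna) cross-links them into networks. Several of these genes are textbook targets of serum response factor (SRF) and its actin-sensing partners, the myocardin-related factors, which bind the CArG box, a pair of C, a run of A or T, and a pair of G.

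Promoter sequence was available for 9 of the 10 genes, and Tagln had no entry. The bases just before the RefSeq start of 4 genes are shown because they span the range met among the members: 2 inexact boxes (Acta2 and Tpm1, both higher with the expander), an exact box (Myl9, not called on any day) and none (Actn1, with the largest difference on day 4). Sequences are from RefSeq on GRCm38.p6 and read 5′ to 3′ on the gene's strand, 250 bases each. Capitals mark matches to the CArG box with at most 1 mismatch. The windows are chr19:34255374-34255623 (minus strand) for Acta2, chr9:67049214-67049463 (minus) for Tpm1, chr2:156775214-156775463 (plus) for Myl9 and chr12:80260364-80260613 (minus) for Actn1.
Acta2: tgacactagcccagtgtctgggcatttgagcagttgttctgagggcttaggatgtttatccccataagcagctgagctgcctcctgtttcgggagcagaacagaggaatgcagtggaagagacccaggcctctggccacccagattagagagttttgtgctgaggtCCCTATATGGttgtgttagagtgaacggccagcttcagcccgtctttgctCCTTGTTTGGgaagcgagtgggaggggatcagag
Tpm1: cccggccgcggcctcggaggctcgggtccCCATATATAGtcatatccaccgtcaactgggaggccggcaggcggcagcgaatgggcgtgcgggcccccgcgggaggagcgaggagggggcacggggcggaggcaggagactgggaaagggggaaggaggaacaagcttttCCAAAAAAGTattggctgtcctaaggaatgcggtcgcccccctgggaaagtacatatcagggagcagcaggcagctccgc
Myl9: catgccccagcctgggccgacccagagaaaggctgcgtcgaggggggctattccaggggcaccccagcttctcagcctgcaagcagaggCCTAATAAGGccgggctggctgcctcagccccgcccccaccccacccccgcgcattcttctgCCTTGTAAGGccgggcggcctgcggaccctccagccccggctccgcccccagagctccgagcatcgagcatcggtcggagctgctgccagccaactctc
Actn1: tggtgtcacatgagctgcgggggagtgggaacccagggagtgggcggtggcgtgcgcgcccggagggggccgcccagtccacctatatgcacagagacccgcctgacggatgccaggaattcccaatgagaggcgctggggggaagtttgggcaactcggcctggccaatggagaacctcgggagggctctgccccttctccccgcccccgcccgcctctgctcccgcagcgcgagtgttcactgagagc

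The Acta2 window held CCCTATATGG at positions -84 to -75 and CCTTGTTTGG at -34 to -25, counting -1 as the base before the start. That of Tpm1 held CCATATATAG at -221 to -212 and CCAAAAAAGT at -80 to -71, each with 1 mismatch. Myl9 had the exact box CCTAATAAGG at -161 to -152 and CCTTGTAAGG at -99 to -90. Flna and 1 of the 2 windows of Cald1 had 1 inexact match each, and the windows of Cnn1, Tpm2, Tpm4 and Actn1 had none. The box is its own reverse complement, so both strands were read at once, and matches could overlap. Of all 32851 promoter windows of this length, 1.47% held an exact box, 18.6% a match with at most 1 mismatch, and 2.96% held 2 or more such matches. A match is a string of letters and not a measured binding site, and boxes may lie outside these windows.

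Library depth ran from 21461294 to 30210204 counts. Levels are given as CPM, each gene's count scaled to a common library size, on totals scaled by trimmed mean of M values (TMM), and differences as log2 fold changes with standard error (SE) from edgeR's quasi-likelihood test, fitted over all 22 libraries and 17554 genes. A gene was called at a Benjamini-Hochberg adjusted p under 0.05 over all those genes. Without TMM the median of all genes moved from 0.02, 0.02 and 0.03 to 0.21, 0.49 and 0.36 (log2, days 1, 2 and 4), and the share of calls that were higher moved from 48.7%, 57.5% and 57.0% to 66.2%, 90.5% and 80.8%. With totals that left out Col1a1, Col1a2 and Col3a1 in place of TMM, the medians were 0.02, 0.19 and 0.18, and 49.0%, 73.7% and 69.6% of calls were higher. Every fold change here is therefore relative to the TMM scale. The genes of the positive gates were present, with Pdgfra at 227 to 1022 CPM and Cd34 at 216 to 2346 CPM, and Pecam1, Ptprc, Kit and Epcam were between 0 and 3.68 CPM. Both positive genes differed by arm: on day 2 Cd34 was at 1677 to 2087 CPM in CTRL and 216 to 665 CPM in EXP, and Pdgfra at 227 to 258 and 464 to 1022 CPM. On day 1 Cd34 was at 1274 to 1545 and 262 to 778 CPM, and on day 4 its arms overlapped. The part of this in the differences of the contractile genes was not tested.

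Some libraries stood high for most members. Day 1 CTRL replicate 4 had the highest value of its group for 7 of the 10 genes, day 1 EXP replicate 5 for 8, and day 4 EXP replicate 1 for 9. Results that rest on them are given below with and without them. The libraries also split, across arms, by a set of 192 genes that follow Rnf10 and hold none of the 10: 3 of 4 day 1 CTRL, 2 of 5 day 1 EXP and 2 of 4 day 4 CTRL libraries lay on the high side and all others on the low side. The labels name no batch that matches the split.

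Checked against the levels, the label myofibroblast held only in part. The members most tied to smooth muscle were close to the floor of counting. Tagln lay between 0.0449 and 0.911 CPM (1 to 34 reads), and Cnn1 between 0 and 1.05 CPM, with no read in 7 of 22 libraries and at most 3 reads in 14. A count of 0 allows up to 3 reads, which is 0.0804 to 0.157 CPM in these libraries. Acta2 ran from 1.44 to 32.8 CPM and Myl9 from 2.23 to 24.1 CPM. The abundant members were widely expressed cytoskeletal genes: Flna at 424 to 1143 CPM, Tpm4 at 255 to 575 CPM, Cald1 at 115 to 418 CPM and Tpm1 at 59.5 to 271 CPM. In bulk RNA, fewer cells of a type and less RNA per cell cannot be told apart.

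Per length of exon, the order of the group means was Tpm4 (160 to 207 CPM per kb), Flna (50.7 to 98.8), then Tpm1 (10.2 to 31.1) and Cald1 (12.4 to 26.4), which changed places between groups. Myl9 (3.08 to 12.5) and Acta2 (1.50 to 10.1) also changed places. Tpm2 (0.701 to 3.27) and Actn1 (0.208 to 2.13) followed with ranges that overlapped, then Tagln (0.0922 to 0.293) and Cnn1 (0.0218 to 0.158). Tagln, Cnn1, Acta2 and Actn1 each had a far more abundant relative. Tagln stood far under Tagln2 (157 to 288 CPM per kb in group means), and Cnn1 under Cnn3 (65.0 to 81.9) and Cnn2 (7.45 to 23.8). Acta2 was under the cytoplasmic actins Actb (96.0 to 193) and Actg1 (157 to 235), and Actn1 was under Actn4 (42.0 to 68.2).

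**Figure D1:**
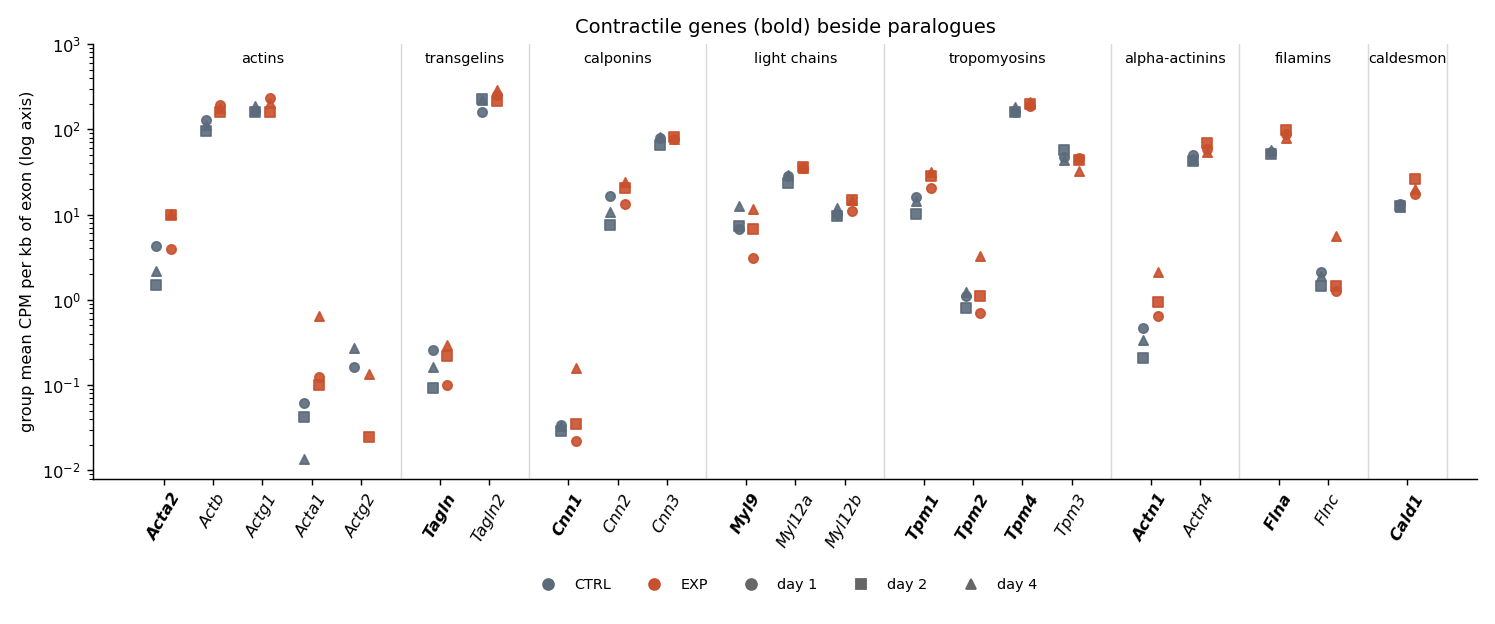
Mean CPM per kb of exon in each of the 6 groups, on a log axis, for the 10 contractile genes (bold) and paralogues of them; circles are day 1, squares day 2 and triangles day 4, grey CTRL and orange EXP. Group means of 0 (Actg2 in 2 groups) are not drawn, and Tagln, Cnn1, Acta2 and Actn1 lie under Tagln2, Cnn3, Actb and Actn4 in every group.

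With the expander, Acta2, Tpm1, Actn1 and Cald1 were higher on days 2 and 4, and Flna on days 1 and 2. On day 1 Flna alone of the 9 tested members was called higher, where 13.9% of all tested genes were called higher and 14.7% lower. The day 1 count of members called higher is near that share. On day 2 Acta2, Tpm1, Actn1, Flna and Cald1 were higher, 5 of 9 against 7.72% of all genes. On day 4 Acta2, Tpm1, Actn1 and Cald1 were higher, 4 of 9 against 12.8% of all genes. None was called lower on days 2 or 4, where 5.71% and 9.66% of all genes were, nor on day 1. At an unadjusted p under 0.05, Tagln and Myl9 were lower on day 1 and no member was on days 2 or 4. DESeq2 called Myl9 lower on day 1 and limma voom called none lower. The median log2 fold change of the 9 was 0.23, 1.06 and 0.83 on the 3 days, beside 0.02, 0.02 and 0.03 over all tested genes. Cnn1 did not pass the filter on low counts and has no test.

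**Figure D2:**
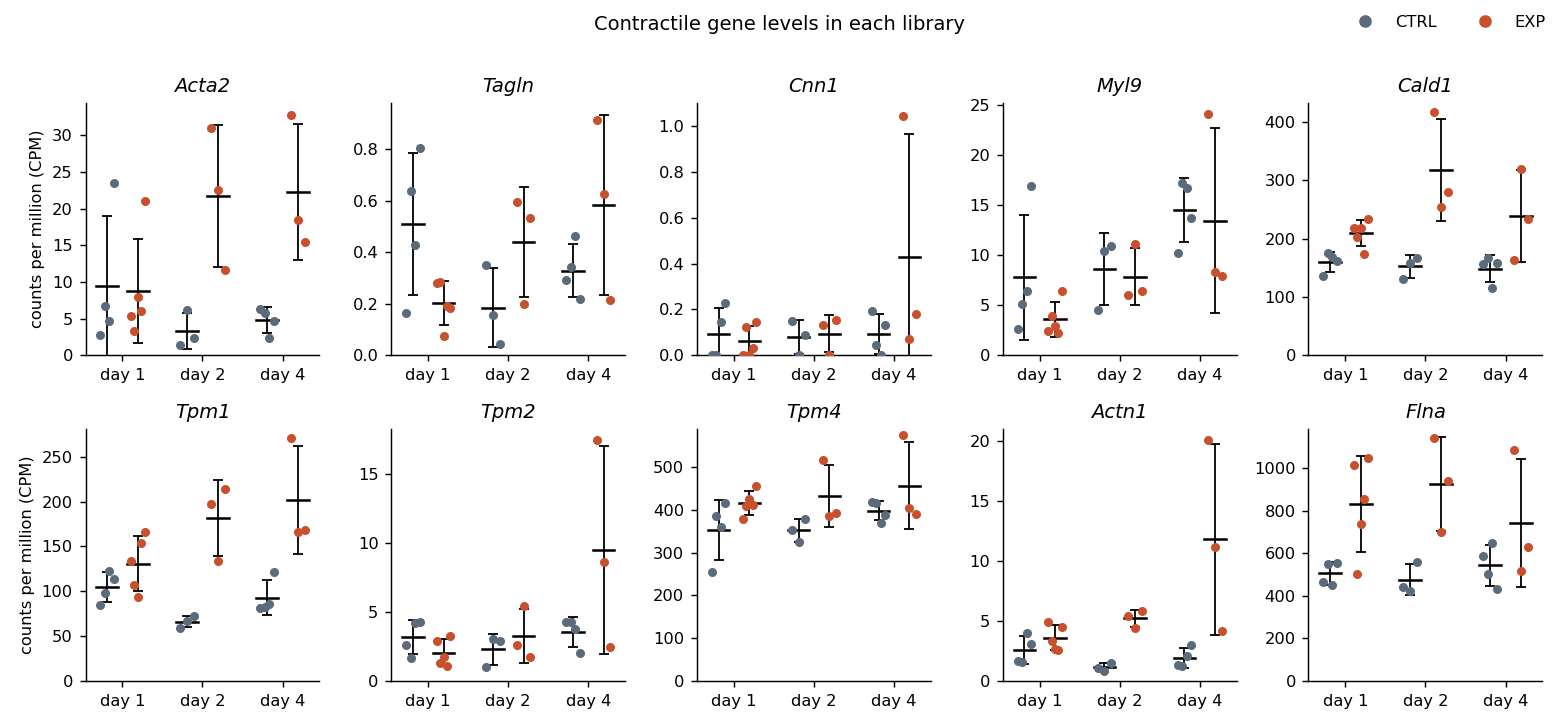
CPM of the 10 genes in each of the 22 libraries (points), by day, with the group mean (line) and SD (bars, cut off at 0); grey is CTRL and orange EXP, and each panel has its own axis from 0. On day 2 the EXP points of Acta2, Tpm1, Actn1, Flna and Cald1 all lie above the CTRL points, as do those of Tpm4, which was not called. The share of all genes with arms apart was not counted. On day 4 replicate 1 is the top EXP point of every gene except Cald1.

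Acta2, the marker actin, was read in every library. On day 2 its levels were 1.44, 6.11 and 2.34 CPM in CTRL and 31.0, 22.6 and 11.7 CPM in EXP. On day 4 they were 6.29, 5.79, 2.39 and 4.63 CPM in CTRL and 32.8, 18.4 and 15.5 CPM in EXP. The arms did not overlap on either day. The fitted difference was 2.73 (SE 0.78, adjusted p = 0.0254) on day 2, or 6.61-fold. It was 2.22 (SE 0.68, adjusted p = 0.0264) on day 4, or 4.66-fold.

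Day 1 was different in pattern for Acta2: CTRL libraries held 2.76, 6.65, 4.69 and 23.6 CPM and EXP libraries 5.31, 3.27, 7.88, 6.05 and 21.0 CPM. The arms overlapped and 1 library of each stood high. The difference was -0.11 (95% interval -1.37 to 1.14), 0.89 without CTRL replicate 4 and -0.74 without EXP replicate 5, none of them called. The test of whether the expander effect on Acta2 differs between days gave an adjusted p of 0.0908. The calls of Acta2 were near the threshold: on day 2 leaving out CTRL replicate 1, CTRL replicate 3 or EXP replicate 1 ended the call, and on day 4 leaving out CTRL replicate 3 or 4 or EXP replicate 1 or 2 did. Without day 4 EXP replicate 1 the difference was 1.83 (adjusted p = 0.127). On both days the call was lost without the filter on low counts (adjusted p = 0.0743 and 0.0692). On day 4 it was also lost with the library split in the fit (1.50, adjusted p = 0.0728) and among low-side libraries alone (1.87, adjusted p = 0.114).

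Within the actins, day 2 CTRL libraries held 0.587% ± 0.457 (SD, n = 3) of actin CPM per kb as Acta2, against 2.96% ± 1.04 (SD, n = 3) with the expander. The day 4 shares were 0.701% ± 0.188 (SD, n = 4) without and 2.57% ± 1.01 (SD, n = 3) with it. The arms did not overlap on either day. The two-sided exact permutation tests gave p = 0.1 on day 2, the smallest that 3 against 3 can give, and p = 0.0286 on day 4, the smallest for 4 against 3. Over the 33 shares tested, the members' share of all counts included, the adjusted values were 0.206 and 0.131, so neither passed. Actb and Actg1, not Acta2, made up nearly all actin RNA in both arms.

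The other smooth muscle members followed less clearly. Tagln was at 0.0449 to 0.348 CPM in CTRL and 0.197 to 0.594 CPM in EXP on day 2, at most 18 reads a library. Its differences were -1.32, 1.26 and 0.83 on the 3 days, with adjusted p of 0.110, 0.305 and 0.392. The exons of Tagln share 1241 of their 1988 bases with the opposite-strand gene Gm48529 and 108 with Pcsk7 in GENCODE M21. Whether reads were counted by strand is not given in the sources used here, so reads of Tagln and these genes may not be separable. Cnn1 reached 39 reads in day 4 EXP replicate 1 and at most 6 in any other library. Fitted with a lower filter, its differences were -0.65, 0.24 and 2.25, adjusted p = 0.779, 0.973 and 0.282.

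Myl9, the myosin light chain, was called on no day. On day 1 it was at 2.64 to 16.9 CPM in CTRL and 2.23 to 6.42 CPM in EXP, a difference of -1.12 (SE 0.46, adjusted p = 0.0755). That value fell short of the threshold with all libraries, was -1.44 and called lower without EXP replicate 5 (adjusted p = 0.0324) and -1.41 and called lower without CTRL replicate 1 (adjusted p = 0.0285), and was -0.41 without CTRL replicate 4. On days 2 and 4 the differences were -0.14 and -0.10, with 95% intervals of -1.32 to 1.05 and -1.20 to 1.00, and their sign turned positive with either set of library totals in place of TMM. Its relatives Myl12a and Myl12b ran at 23.5 to 36.2 and 9.72 to 14.8 CPM per kb in group means, beside 3.08 to 12.5 for Myl9. The ranges of Myl12b and Myl9 overlap. Myl12b has more than 1 identifier, with exons that share 739 bases, and only the identifier with the most reads was used.

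Among the tropomyosins, Tpm1 was called on both later days, and Tpm2 and Tpm4 on none. Its levels on day 2 were 59.5, 67.3 and 72.0 CPM in CTRL and 198, 134 and 214 CPM in EXP. On day 4 they were 81.9, 82.5, 85.4 and 122 CPM in CTRL and 271, 167 and 168 CPM in EXP. On both days each EXP library was above each CTRL library. The differences were 1.46 (SE 0.25, adjusted p = 0.000865) and 1.12 (SE 0.23, adjusted p = 0.00244), or 2.75-fold and 2.17-fold, and the calls held in all 12 alternatives and in every fit that left out 1 library.

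On day 1 Tpm1 was at 84.5, 98.2, 123 and 113 CPM in CTRL and 134, 107, 93.8, 154 and 167 CPM in EXP, overlapping, with a difference of 0.32 (SE 0.20, adjusted p = 0.240). The expander effect on Tpm1 differed between days (adjusted p = 0.0460, where 8.82% of all genes passed this test), a call kept in 7 of 22 fits that left out 1 library, with adjusted p up to 0.107. In CTRL skin Tpm1 was lower on day 2 than on day 1 in every library, -0.66 (SE 0.23), which did not pass (adjusted p = 0.198).

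Tpm4, the most abundant tropomyosin, was called on no day. It ran from 326 to 380 CPM in CTRL and 387 to 517 CPM in EXP on day 2, arms that did not overlap, yet the difference was 0.29 (SE 0.18, adjusted p = 0.316). With library totals in place of TMM it was 0.78 and called (adjusted p = 0.0179). On days 1 and 4 it was 0.23 and 0.20, adjusted p = 0.260 and 0.429, and the 95% intervals on the 3 days reached no higher than 0.68. Without day 4 EXP replicate 1 the day 4 value was -0.00052. Tpm4 has a processed pseudogene, Gm7809, that matches it over 742 bases at 96.8% identity and drew reads equal to 11.3% of its own count, so some of its reads may be assigned there. No other member had a same-strand match of 100 bases or more at 95% identity elsewhere in GENCODE M21 transcripts.

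Tpm2, whose product is found in muscle and fibroblasts, was scarce, at 0.995 to 5.47 CPM in all libraries but 2. Those were day 4 EXP replicates 1 and 2, at 17.5 and 8.64 CPM, beside replicate 3 at 2.43 CPM. The day 4 difference was 1.41 (SE 0.55, adjusted p = 0.0675), and without replicate 1 it was 0.63 (adjusted p = 0.514). It was called without replicate 3 (1.87, adjusted p = 0.0106), with the DESeq2 test (adjusted p = 0.0442), with library totals in place of TMM (1.87, adjusted p = 0.0197) and with totals that left out the 3 collagen genes (1.63, adjusted p = 0.0380).

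**Figure D3:**
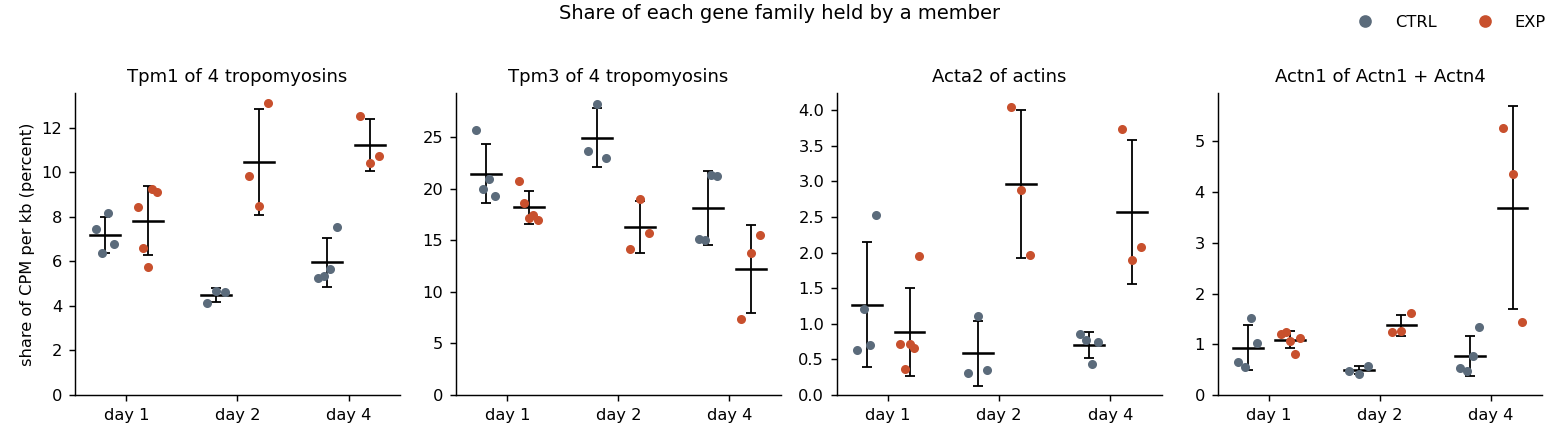
Share (percent of CPM per kb) of Tpm1 and Tpm3 among 4 tropomyosin genes, of Acta2 among 5 actins and of Actn1 among Actn1 and Actn4, in each library (points), with group mean and SD; grey is CTRL and orange EXP. The mean Tpm1 share is 4.48% in CTRL and 10.5% in EXP on day 2, and 5.95% and 11.2% on day 4, with no overlap of the arms.

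Among the 4 tropomyosin genes Tpm1 held a larger share in every EXP library than in any CTRL library on days 2 and 4. On day 2 CTRL libraries averaged 4.48% ± 0.310 (SD, n = 3), against 10.5% ± 2.39 (SD, n = 3) with the expander. The day 4 averages were 5.95% ± 1.09 (SD, n = 4) without the gel, against 11.2% ± 1.15 (SD, n = 3). The share of Tpm3 was 25.0% in CTRL and 16.3% in EXP on day 2, and 18.2% and 12.2% on day 4, in means. That of Tpm4 stayed between 70.2% and 75.5% in group means. Two-sided exact permutation tests of the Tpm1 share gave p = 0.1 and 0.0286 on days 2 and 4, the smallest possible in each case, and 0.206 and 0.131 after adjustment over the 33 shares.

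Caldesmon, the tropomyosin partner, rose with the expander. On day 2 Cald1 was at 131, 159 and 167 CPM in CTRL and 418, 255 and 280 CPM in EXP. On day 4 it was at 157, 166, 115 and 157 CPM in CTRL and 163, 320 and 234 CPM in EXP. The arms were apart on day 2 and overlapped on day 4, where EXP replicate 1 fell inside the CTRL range. The differences were 1.06 (SE 0.22, adjusted p = 0.00412) and 0.68 (SE 0.21, adjusted p = 0.0223). The day 2 call held in all 12 alternatives and every leave-one-out fit. The day 4 call was lost without EXP replicate 2 (0.40, adjusted p = 0.200) or CTRL replicate 3 (0.58, adjusted p = 0.0703), and was 0.90 without EXP replicate 1. It was also lost with the library split in the fit (0.65, adjusted p = 0.0511), among low-side libraries alone (0.56, adjusted p = 0.234), with a replicate block (adjusted p = 0.0781) and with day 4 libraries alone (adjusted p = 0.120). On day 1 Cald1 was at 135 to 175 CPM in CTRL and 174 to 233 CPM in EXP, a difference of 0.39 (adjusted p = 0.118). It was called there with library totals in place of TMM (0.58, adjusted p = 0.0235) and with day 1 libraries alone (0.40, adjusted p = 0.0490).

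Actn1, the bundling α-actinin, showed the largest difference among the members on day 4. On day 2 it was at 1.09, 0.835 and 1.53 CPM in CTRL and 5.44, 4.40 and 5.80 CPM in EXP. On day 4 it was at 1.31, 1.20, 2.05 and 2.99 CPM in CTRL and 20.0, 11.1 and 4.18 CPM in EXP. No EXP library fell to the CTRL range on either day, but the 3 day 4 EXP libraries spread widely. The differences were 2.17 (SE 0.50, adjusted p = 0.00717) and 2.64 (SE 0.45, adjusted p = 0.000704), or 4.50-fold and 6.24-fold. Both calls held in all 12 alternatives and every leave-one-out fit, and without day 4 EXP replicate 1 the day 4 value was 2.02 (adjusted p = 0.00838).

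On day 1 Actn1 was at 1.57 to 4.01 CPM in CTRL and 2.58 to 4.89 CPM in EXP (0.47, adjusted p = 0.386). Its expander effect differed between days (adjusted p = 0.0402), a call kept in 8 of 22 fits that left out 1 library, with adjusted p up to 0.110. Its close relative Actn4 was far more abundant, at 258 CPM in CTRL and 418 CPM in EXP in mean on day 2, where it too was called higher (0.70, adjusted p = 0.0216). Actn1 made up 0.486% of the Actn1 and Actn4 total in CTRL and 1.37% in EXP on day 2, and 0.770% and 3.69% on day 4.

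Flna, the network cross-linker, was the one member called on day 1. Its levels were 466, 551, 453 and 555 CPM in CTRL and 1019, 502, 737, 856 and 1051 CPM in EXP, and EXP replicate 2 lay inside the CTRL range. On day 2 they were 444, 424 and 561 CPM in CTRL and 1143, 702 and 942 CPM in EXP, with no overlap. The differences were 0.72 (SE 0.23, adjusted p = 0.0220) and 0.96 (SE 0.28, adjusted p = 0.0244). The day 1 call was lost without CTRL replicate 1, CTRL replicate 3 or EXP replicate 5 (adjusted p = 0.0602, 0.0650 and 0.0582). It was also lost among the high-side libraries alone (0.62, adjusted p = 0.193) and with a replicate block (0.58, adjusted p = 0.0841). The day 2 call was lost without CTRL replicate 1 or 2 or EXP replicate 1 or 3, with adjusted p of 0.0627 to 0.132.

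On day 4 Flna was at 434 to 650 CPM in CTRL and 1086, 517 and 629 CPM in EXP, and only replicate 1 stood above the controls. The difference was 0.45 (adjusted p = 0.207), and 0.078 without that replicate. With library totals in place of TMM it was 0.85 and called (adjusted p = 0.0353).

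**Figure D4:**
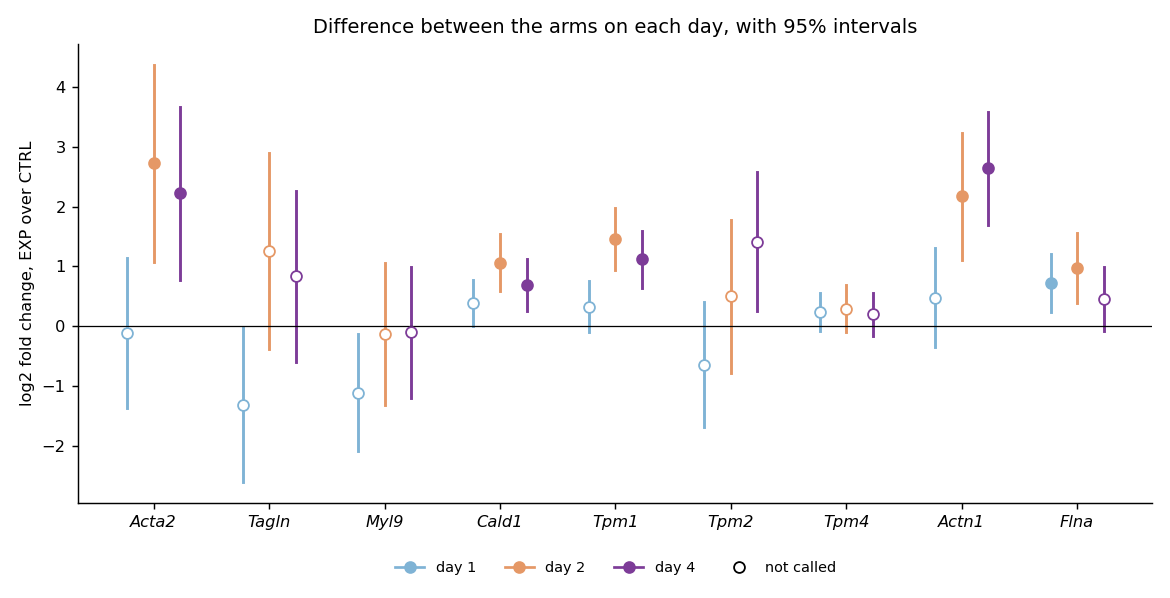
Log2 fold change of EXP over CTRL with 95% intervals for the 9 tested genes on days 1, 2 and 4; filled points were called at adjusted p under 0.05. Acta2, Tpm1, Actn1 and Cald1 are filled on days 2 and 4 and Flna on days 1 and 2, and all filled points lie above 0.

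Change over days was tested within each arm. Within EXP, Myl9, Tpm2 and Actn1 changed over days 1, 2 and 4 (adjusted p = 0.0314, 0.0150 and 0.0167), 3 of 9 against 14.3% of all genes. Between days 1 and 4 they were higher by 1.91, 2.22 and 1.71. Leaving out day 4 EXP replicate 1 ended all 3 calls. Within CTRL none of the 9 was called over days by edgeR, where 0.291% of all genes were. Tpm1 alone had an unadjusted edgeR p under 0.05. DESeq2 and limma voom also called none there.

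Across the 22 libraries the members were loosely linked. The 36 pairs had a median Pearson correlation of log2 CPM of 0.45, from -0.19 to 0.91, and of 0.35 after the group means were removed. The closest pair was Tpm1 and Actn1 over all libraries (0.91, and 0.66 within groups). After the group means were removed it was Acta2 and Myl9 (0.67). These values share library, depth and scaling, so they are descriptions. Outside the list, the genes most like Acta2 were Ifrd2, Pdk3 and Hmgb3 (0.85, 0.84 and 0.84, and 0.67, 0.65 and 0.63 within groups). Those most like Tagln were Dlg2, Gm19680 and Fam149a (0.81, 0.77 and 0.76). Tpm4 was closest to Gm7809, its pseudogene (0.93). Flna was closest to Fmnl3, Actn4 and Msn (0.91, 0.90 and 0.90), with 0.88, 0.86 and 0.80 within groups.

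Partner genes were counted by list. Over all tested genes the shares were 13.9%, 7.72% and 12.8% called higher and 14.7%, 5.71% and 9.66% called lower on days 1, 2 and 4. Of the paralogues of the members, 13 tested, 2 were called higher and 1 lower on day 1, counts near those shares. The counts were 3 and 0 on day 2, and 3 and 0 on day 4. On day 1 Tagln2 rose by 0.70 (adjusted p = 0.00306) and Actg1 by 0.53 (adjusted p = 0.0213). Actg2, an enteric smooth muscle actin, was at 0 in all day 1 EXP libraries and at 0 to 0.689 CPM in CTRL (adjusted p = 0.0228), at least 2.09-fold lower against a floor of 3 reads in a library. Acta1, the skeletal actin, had 102 reads in day 4 EXP and 2 in CTRL, a ratio of 49.3 (95% counting interval 13.3 to 412), at no more than 2.01 CPM in any library. That interval pools the reads and leaves out the spread between libraries, 0.178 to 2.01 CPM in day 4 EXP. The fitted difference was 5.23 (SE 1.14, adjusted p = 0.00396).

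Of 12 tested genes of the myosin motor and its control, 1 was called higher and 2 lower on day 1, 0 and 3 on day 2, and 1 and 5 on day 4. The day 1 counts are near the shares over all genes. Mylk, the kinase that switches on the light chain, was at 9.67 CPM in CTRL and 3.56 CPM in EXP in mean on day 1 and fell by 1.44 (SE 0.35, adjusted p = 0.00426). It was also lower on day 4, at -1.22 (adjusted p = 0.0375). Rock1, a kinase that promotes actomyosin contraction, fell on days 2 and 4, with differences of -0.81 and -1.01 (adjusted p = 0.0249 and 0.00400), and Rhob, a small GTPase, fell on the same days, at -1.80 and -2.38 (adjusted p = 0.0358 and 0.00568). Ppp1r12a, the targeting subunit of myosin phosphatase, fell on days 2 and 4, at -0.58 and -0.46 (adjusted p = 0.0214 and 0.0345), and Myh10, a non-muscle myosin heavy chain, on day 1, at -0.59 (adjusted p = 0.0476). Rock2 rose by 0.58 on day 1 (adjusted p = 0.0186) and Rhoc by 0.80 on day 4 (adjusted p = 0.0176).

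The list of SRF regulators, with 9 tested genes, also counted Ppp1r14a, which acts on myosin phosphatase. Of the 9, 0 were called higher and 2 lower on day 1, 1 and 2 on day 2, and 1 and 1 on day 4. The day 4 counts are near the shares over all genes. Fhl2, a LIM cofactor and itself an SRF target, went from 0.595 to 6.87 CPM in mean on day 2 and from 1.86 to 15.2 CPM on day 4, 3.51 and 3.03 (adjusted p = 0.000220 and 0.000231). Ppp1r14a, an inhibitor of myosin phosphatase, fell on days 1 and 2, with differences of -3.40 and -2.72 (adjusted p = 0.00211 and 0.0476). Smad3, the TGF-β effector, fell on days 2 and 4, with -1.25 and -1.34 (adjusted p = 0.0418 and 0.0178), and Elk1, a partner of SRF, on day 1, with -0.58 (adjusted p = 0.00657). Srf itself, named here after its values were seen, was not called on any day (0.97, -0.16 and -0.37).

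Of 22 adhesion and stress fibre genes, 6 were called higher and 2 lower on day 1. The counts were 2 and 2 on day 2, and 10 and 1 on day 4, with median differences of 0.03, 0.19 and 0.48 on the 3 days. The day 2 counts are near the shares over all genes. Zyx, an adhesion protein that gathers on strained actin fibres, was at 23.5 to 47.2 CPM in CTRL and 99.2 to 128 CPM in EXP on day 2 and was higher by 1.59 (adjusted p = 0.0138), by 1.07 on day 1 (adjusted p = 0.0210) and by 2.26 on day 4 (adjusted p = 0.000697). Enah, which extends actin filaments, rose by 0.73 on day 1 and 1.24 on day 4 (adjusted p = 0.0109 and 0.00149). Of the actin turnover factors, Cfl1 rose by 0.63 on day 1 and 0.53 on day 4 (adjusted p = 0.00683 and 0.0428), and Pfn1 by 0.69 on day 2 and 0.83 on day 4 (adjusted p = 0.0283 and 0.00454). Tns1, a tensin of fibrillar adhesions, fell on days 1 and 2 (-0.81 and -1.39), Csrp1 on day 1 (-1.47) and Pdlim5 on days 2 and 4 (-0.91 and -0.76), with adjusted p from 0.000637 to 0.0129.

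Of 12 other myofibroblast markers, mostly matrix genes, 1 was called higher and 6 lower on day 1, 4 and 2 on day 2, and 5 and 1 on day 4. Tnc, tenascin C, rose on days 1, 2 and 4 by 2.92, 5.39 and 4.40 (adjusted p = 0.0150, 0.00457 and 0.00428). Postn, periostin, fell on day 1 (-1.42, adjusted p = 0.00914) and rose on days 2 and 4 by 2.58 and 1.44 (adjusted p = 0.00238 and 0.0236). Cdh11, a cadherin of myofibroblasts, rose on day 2 by 1.78 (adjusted p = 0.00101), and Cdh2 on day 4 by 4.73 (adjusted p = 0.00237). On day 2 Cdh2 had at most 1 read in a CTRL library and 31 in an EXP library (adjusted p = 0.0221). Col1a1 fell on all 3 days, at -0.99, -1.85 and -1.13 (adjusted p = 0.0319, 0.00693 and 0.0450), Col3a1 on days 1 and 2, at -1.35 and -1.48 (adjusted p = 0.00188 and 0.0107) and Fn1, fibronectin, on day 1, at -1.95 (adjusted p = 0.000263). On day 2 Acta2 was called higher while both collagens were called lower.

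Markers of other cells that use these genes were followed beside them. A list of 14 smooth muscle and pericyte genes, 13 of them above 3 reads in some library, summed to 252 to 391 CPM in CTRL and 85.5 to 183 CPM in EXP on day 1. On day 2 the sums were 567 to 627 and 101 to 199 CPM, and on day 4 413 to 481 and 125 to 304 CPM. The sum was therefore lower in EXP on all 3 days, also on day 1, where Acta2 was not called. Of 11 tested genes of the list, 0 were called higher, and 3, 3 and 0 lower on days 1, 2 and 4. Their part in the differences of the contractile genes was not tested. Ndufa4l2, a pericyte marker of this list, alone was at 120 to 417 CPM in CTRL and 14.3 to 165 CPM in EXP. Some genes of the list were near 0. Myh11 was at no more than 2.34 CPM, and at 0 in all day 2 EXP libraries. Rgs5 was at no more than 4.54 CPM, with differences of 1.88 and 0.38 on days 2 and 4 that were not called. Lmod1 was at no more than 0.134 CPM. The genes called lower were Cspg4, Abcc9 and Ndufa4l2 on day 1 (-1.20, -1.71 and -1.99). On day 2 they were Des, Smtn and Ndufa4l2 (-2.58, -0.73 and -3.17). Within EXP, the library with the highest Acta2 had the lowest sum of the list on days 2 and 4, but not on day 1. Des and Smtn, of the same list, were at 0.288 to 9.43 and 48.1 to 120 CPM.

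A list of 8 adipocyte genes, all detected, had higher sums in EXP on days 2 and 4 but not on day 1. The day 1 arms overlapped, at 1.86 to 24.9 CPM in CTRL and 0.835 to 9.69 CPM in EXP. The sums were 0.249 to 3.13 and 8.02 to 89.9 CPM on day 2, and 0.587 to 2.22 and 43.7 to 522 CPM on day 4. Of its 7 tested genes, 0 passed on day 1, where their median difference was -4.26. On day 2 the calls numbered 2 and on day 4 they numbered 7, all upward. The part of this list in the differences of the contractile genes was not tested. Within day 4 EXP, replicate 1 had the highest Acta2, Actn1 and Tpm1 and the lowest adipocyte sum. Within day 2 EXP, replicate 1 had the highest Acta2 (31.0 CPM) and the highest adipocyte sum (89.9 CPM), while Actn1 and Tpm1 were highest in replicate 3.

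Skeletal muscle genes (15 listed) summed to at most 8.31 CPM, keratinocyte genes (12) to at most 58.4, and Schwann and melanocyte genes (10) to at most 46.2 CPM. The keratinocyte sum was 10.5 to 46.3 CPM in CTRL and 5.08 to 5.94 CPM in EXP on day 2, and its arms overlapped on days 1 and 4. The arms of the endothelial sum (10 genes) overlapped on each day, at most 114 CPM. The immune sum (12 genes) was 115 to 166 CPM in CTRL and 66.8 to 96.5 CPM in EXP on day 2, and its arms overlapped on days 1 and 4. Single genes of these lists, named after their values were seen, were called higher with the expander at low levels. Kdr, a receptor of endothelial cells, was higher on days 2 and 4 (adjusted p = 0.0345 and 0.0179) at no more than 2.57 CPM in any library, and Emcn, endomucin, on day 4 (adjusted p = 0.0394), with at most 1 read in a CTRL library and 34 in an EXP library. S100a8, a neutrophil gene, was higher on days 1, 2 and 4 (adjusted p = 0.0131, 0.0165 and 0.00907), with at most 1 read in any CTRL library and at most 4.74 CPM in EXP, and Cd68, a macrophage gene, on days 1 and 2 (1.36 and 1.86, adjusted p = 0.0208 and 0.0217) at no more than 24.9 CPM. Their part in the differences of the contractile genes was not tested.

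The sum of the 9 fibroblast identity genes, collagens included, was lower in EXP on each day. Collagens made up much of it: on day 2 the CTRL means of Col1a1 and Col3a1 were 126175 and 106719 CPM. Pdgfra, of the same list, went the other way on days 1 and 2. It was at 320 to 413 CPM in CTRL and 465 to 702 CPM in EXP on day 1, and at 227 to 258 and 464 to 1022 CPM on day 2. The sum of the 9 was 138717 to 192042 CPM in CTRL and 74605 to 117681 CPM in EXP on day 1. The day 2 sums were 236953 to 289287 and 49369 to 120876 CPM, and those of day 4 189022 to 249629 and 41299 to 185679 CPM, with no overlap of the arms on any day. Of the 9, 1 was called higher on each day and 3, 4 and 3 lower on days 1, 2 and 4. Over all genes 13.9%, 7.72% and 12.8% were called higher and 14.7%, 5.71% and 9.66% lower. The counts called higher are near those shares. The part of these genes in the differences of the contractile genes was not tested.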

How the data were processed

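Raw counts per gene for 22 libraries were deposited by the authors in 1 table, keyed by Ensembl identifier. Per the submitters' processing notes, reads were trimmed with Trimmomatic and the genome build was mm39. The aligner, the counter and its strand setting are not given in the sources used here. Symbols came from GENCODE M21 and matched 52081 of 55414 identifiers. 0 columns belonged to no listed library. Replicates differed by more than counting noise.

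Genes with too few reads were removed (filterByExpr, minimum count 10), TMM factors were computed and edgeR 4.0.16 in R 4.3.3 was fitted to the 6 group means (robust quasi-likelihood F-test, 16 residual degrees of freedom, Benjamini-Hochberg adjustment). DESeq2 1.42.0, limma 3.58.1 (voom), other scalings and filters, single-day fits, the library split and leaving out each library were alternatives. The fit was tested on simulated data. CPM per kb divides by the union of exons in GENCODE M21. A log2 CPM used a prior count of 2. Precision is set by the reads per gene, and intervals and floors cover counting error only where named as such.

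The members and gene lists were chosen with earlier results of these data known. All members are described. From each partner list, the 2 called genes with the smallest p in each direction on each day are named. Sums are given for each marker list, and the first symbols, Myh11, Des and Smtn, only for smooth muscle and pericytes. Ndufa4l2, Rgs5, Lmod1, Kdr, Emcn, S100a8 and Cd68 were named outside this rule, with their values known. Some results on relatives and similar genes of the members are not reported here.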

Additional observations from a re-analysis of the deposited data

Results flagged for a closer look

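In 30 groups of 4 or 5 libraries with more than 3 reads of a member, 2 held a library far from the others, where chance gives about 1 in 20 groups, or 1.5. Day 1 EXP replicate 5 had Acta2 at 21.0 CPM, while the other 4 libraries of its group lay between 3.27 and 7.88 CPM. Day 4 CTRL replicate 4 had Tpm1 at 122 CPM, while the other 3 lay between 81.9 and 85.4 CPM. The expander effect differed between days by the test of the difference itself for Tpm1 (adjusted p = 0.0460) and Actn1 (adjusted p = 0.0402), in edgeR's quasi-likelihood test.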

How the results depend on the processing

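The counts of called members were 1, 5 and 4 on days 1, 2 and 4, 2 for a difference between days, 3 over days within EXP and 0 within CTRL. On day 1 the count was 2 with library totals without TMM, with the DESeq2 test and with day 1 libraries alone, and 0 with a replicate block and among high-side libraries of the split. On day 4 it was 2 with the split as a covariate and 2 on the low side, where calls over all genes also went from 3943 to 2887 of 17554 and to 1083 of 19460. Library totals without TMM added Tpm4 on day 2 and Tpm2 and Flna on day 4. Calls over all genes then went from 2359 to 4632 and from 3943 to 5289. The DESeq2 test and the totals that left out 3 collagen genes each added Tpm2 on day 4. Smaller changes of count are not all listed. The difference between days gave 1 with limma voom, 1 with a minimum count of 1 (an alternative chosen after seeing the data) and 0 with the block. Change within EXP gave 0 with the block and 1 on the low side. Leaving out 1 library gave 0 to 1 on day 1, 3 to 5 on day 2, 2 to 5 on day 4, 0 to 3 between days and 0 to 3 within EXP. Without day 1 CTRL replicate 1 or EXP replicate 5 the day 1 call was Myl9, lower, and not Flna. Whether replicate numbers pair the libraries is not given by the labels. Same-number correlations of deviations were low, -0.07 to 0.16. Even so, each day 4 EXP library correlated best with its own number, as did replicates 1 and 4 on day 1 and none on day 2. Weak correlations cannot exclude a pairing, so it stays unknown. The block left 5 calls on day 2 and 3 on day 4.

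No called difference changed sign. Acta2 on day 1 (main -0.11) was 0.10 without TMM, 0.069 with limma voom and -0.74 to 0.89 leaving out 1 library. Myl9 on day 2 (main -0.14) was 0.30 without TMM, 0.023 without the 3 collagen genes (also added later) and -0.47 to 0.059 leaving out 1 library. On day 4 (main -0.10) it was 0.33, 0.11 and -0.83 to 0.16. Leaving out 1 library gave Tpm2 on day 2 -0.11 to 0.79 and Tpm4 on day 4 -0.00052 to 0.31. The cause of these changes was not tested. The Acta2 call was lost without the low-count filter on days 2 and 4, and on day 2 with a minimum count of 1. Depth limits Tagln and Cnn1, the members with the fewest reads.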
